A study of Mus musculus with 4 samples.

Results

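The genes described here are 8 regulators of actin filaments and small GTPase effectors: Hcls1, Coro7, Coro1b, Cfl1, Ssh3, Pak2, Rhod and Cdc42ep2. They were taken by gene symbol, as 8 of the 36186 rows of a deposited expression table. The cells were dissected on E13.5 from the junction of kidney and ureter in SV/129 mouse embryos. Every embryo had the genotype labelled PTC-/-MM, in which the hedgehog receptor gene is lost from the metanephric mesenchyme. Both cell populations compared here thus come from mutant embryos, and which of their cells carry the deletion is not known. The labels name neither the Cre line nor the exact allele. An antibody against PTC2 divided the cells by flow sorting into a PTC2+ population and a PTC2- population, with 2 RNA-seq libraries each. Whether a population's 2 libraries stem from different embryos is not labelled, so every p-value covers the spread between libraries alone, which may be technical. Normal embryos were not analysed here.

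Actin filaments grow at the cell edge from branches made by the Arp complex, which cortactin family proteins such as HCLS1 stabilise and which coronins help to take apart. Cofilin severs old filaments and is switched off by phosphorylation, which LIM kinases add downstream of p21-activated kinases and slingshot phosphatases remove. Small GTPases such as CDC42 and RHOD sit above these proteins and pass signals to them through effectors. In a developing ureter the same machinery serves the movement of mesenchymal cells and the shape of epithelial cells, and in blood cells it serves migration and uptake of particles.

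Levels are given in normalized RPKM (NRPKM): reads per gene length and library size, scaled once more by the authors. All 4 libraries summed to between 283806 and 288752 NRPKM. Names fitted the values only in part of the table. Of 108 ribosomal protein and proteasome genes outside 3 chromosome segments, 34 (31.5%) averaged 5 NRPKM or more, and 252 of 1070 olfactory receptors there (23.6%) averaged 1 NRPKM or more. Inside the segments 3 of 3 such ribosomal and proteasome genes reached 5 NRPKM and 0 of 34 olfactory receptors reached 1 NRPKM. The segments hold 1224 rows, namely Naa60 to Mrps6 (chromosome 16), Ighmbp2 to Pygm (chromosome 19) and Insr to Agpat5 (chromosome 8). They were chosen earlier from the mean level over all 4 libraries, without the population labels but with earlier results of these data known. The shares inside the segments use that same mean level, so they are not independent of the choice. They also rest on only 3 ribosomal and proteasome genes. All 8 genes lie in the segments and all 8 passed the filter for testing, as did 706 of the 1224 rows. Of 28 relatives looked up by name, such as other coronins, cofilins, p21-activated kinases and small GTPases, all 28 lie outside the segments. The row named Rhog, a small GTPase of most cells, was listed at 0 in all 4 libraries, and that named Coro1c at 0.0258 and 0 NRPKM in PTC2+, against 0 and 0 NRPKM in PTC2- libraries. Rows of these relatives are therefore not read as those genes, and the hedgehog receptor rows, which also lie outside, give no check of the deletion or the sort.

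RefSeq start regions (250 bases before to 50 after the annotated start, build GRCm38.p6, which differs from the mm9 of the submitters' processing notes) were found for 5 of the 8 genes. They are shown for Hcls1, which had the largest difference, for the coronin Coro7 and the phosphatase Ssh3, whose means were also higher in PTC2+ cells, and for Cfl1, which had the highest level. Capitals mark matches, on either strand, to GAGGAA and GGAAGT (cores bound by ETS factors), GGGCGG (the GC box), CCAAT or the CArG box of SRF. GGAAGT was added to the search after the Hcls1 region had been seen.
Hcls1, chr16:36934733-36935032, plus strand: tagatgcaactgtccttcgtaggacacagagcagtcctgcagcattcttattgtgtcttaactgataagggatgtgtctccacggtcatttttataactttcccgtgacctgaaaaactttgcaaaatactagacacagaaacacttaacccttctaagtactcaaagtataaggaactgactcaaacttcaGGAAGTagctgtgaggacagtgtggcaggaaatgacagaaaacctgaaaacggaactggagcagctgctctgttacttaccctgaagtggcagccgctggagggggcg
Coro7, chr16:4679671-4679970, minus strand: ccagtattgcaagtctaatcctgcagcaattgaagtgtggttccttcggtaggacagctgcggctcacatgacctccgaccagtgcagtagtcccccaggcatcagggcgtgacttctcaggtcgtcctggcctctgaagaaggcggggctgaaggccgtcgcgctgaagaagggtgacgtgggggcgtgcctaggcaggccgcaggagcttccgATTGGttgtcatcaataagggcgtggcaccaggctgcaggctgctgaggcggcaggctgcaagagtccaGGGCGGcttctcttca
Ssh3, first of 2 annotated starts, chr19:4269184-4269483, minus strand: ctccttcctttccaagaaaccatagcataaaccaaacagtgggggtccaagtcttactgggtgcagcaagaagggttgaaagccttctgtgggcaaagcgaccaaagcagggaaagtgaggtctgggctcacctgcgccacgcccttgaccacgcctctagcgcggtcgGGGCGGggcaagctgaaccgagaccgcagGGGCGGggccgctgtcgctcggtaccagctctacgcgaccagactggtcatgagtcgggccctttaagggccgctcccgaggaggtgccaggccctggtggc
Cfl1, chr19:5490205-5490504, plus strand: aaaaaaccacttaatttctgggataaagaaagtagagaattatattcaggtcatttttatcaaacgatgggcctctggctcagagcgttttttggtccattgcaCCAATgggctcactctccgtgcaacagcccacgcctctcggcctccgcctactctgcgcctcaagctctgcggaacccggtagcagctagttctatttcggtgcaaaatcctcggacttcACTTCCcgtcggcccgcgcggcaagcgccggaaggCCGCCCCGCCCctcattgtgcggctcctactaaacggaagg

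Hcls1 had no GC box and no CCAAT in this window, and 1 GGAAGT that begins 58 bases before the start. Its GC content was 45.3%, against 61.0% for Coro7, 62.7% for Ssh3 and 54.7% for Cfl1, and a median of 52.7% over all 32851 windows. Coro7 had 1 GC box, and Ssh3 and Cfl1 had 2 each, with those of Cfl1 overlapping by 1 base. Cfl1 also held 1 GGAAGT, on the other strand. The GC box was present in 35.7% of all windows, CCAAT in 37.4%, GGAAGT in 23.8%, GAGGAA in 28.3% and the CArG box in 1.6%. No window of the 5 genes held GAGGAA or a CArG box. A match describes the letters only, and binding was not measured.

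Hcls1 was high in PTC2+ cells and nearly at the bottom of the scale in PTC2- cells. HCLS1 is the cortactin relative of blood cells and binds both actin filaments and the Arp complex. Its level was 69.5 and 68.7 NRPKM in PTC2+ replicates 1 and 2, against 0.671 and 1.94 NRPKM in PTC2- replicates 1 and 2. The 2 PTC2+ libraries were nearly equal, and both lay far above both PTC2- libraries. The means were 69.1 ± 0.551 NRPKM in PTC2+ and 1.30 ± 0.896 NRPKM in PTC2- cells (SD, n = 2 each), a ratio of 53.0. On the log2(NRPKM + 1) scale, which understates changes of low genes, the difference was 4.98 (SE 0.37, 95% interval 4.07 to 5.90), and it passed limma with adjustment over all rows tested and a threshold of 0.05 (adjusted p = 0.00799). By size of difference Hcls1 ranked 3 of 706 segment rows. An estimate of the value of 1 read, from the most common low value of short genes, puts the PTC2- values at about 2.62 and 5.57 reads, and the PTC2+ values at about 204 and 212 reads. Only a minority of low values lay at that step, so these read numbers are rough and the ratio rests on a poorly counted denominator. Without PTC2+ replicate 1 or PTC2+ replicate 2 the difference was 4.98 or 4.99 and did not pass (limma adjusted p = 0.220 or 0.234), with 1 library set against 2, and it also missed the threshold without the filter on low values (limma adjusted p = 0.0857).

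Both coronins were about 2.1 to 2.2 times as high in PTC2+ as in PTC2- cells, and the higher-expressed one passed the test. CORO1B binds actin filaments and the Arp complex behind the leading edge and recruits slingshot phosphatase. Coro1b was measured at 367.9 and 349.0 NRPKM in PTC2+ replicates 1 and 2, against 171.6 and 159.6 NRPKM in PTC2- replicates 1 and 2. The populations were well apart and the libraries of each were close together. The difference was 1.11 on the log2 scale (SE 0.13, interval 0.78 to 1.44; limma adjusted p = 0.0239). This call was lost when any 1 of the 4 libraries was left out (limma adjusted p 0.142 to 0.234), while the difference stayed between 1.06 and 1.16. It was also lost without the mean-variance trend (limma adjusted p = 0.124) and without the filter on low values (limma adjusted p = 0.149).

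CORO7 is the coronin of the Golgi apparatus, with a tandem repeat of the coronin fold. Coro7 was measured at 93.9 and 115 NRPKM in PTC2+ replicates 1 and 2, against 54.5 and 44.2 NRPKM in PTC2- replicates 1 and 2. The PTC2+ libraries were both higher, with a wider spread than for Coro1b. The difference of 1.07 (SE 0.19, interval 0.59 to 1.55) did not pass over all rows (limma adjusted p = 0.0563) and passed when the adjustment was made within the segments (limma adjusted p = 0.0256). It also passed over all rows with a filter at 5 NRPKM (limma adjusted p = 0.0429). Without the mean-variance trend or without the filter on low values it did not pass (limma adjusted p = 0.162 and 0.176). Vasn overlaps Coro7 in the RefSeq table of GRCm38, and strand was not stated for the counting. Vasn itself stood at 70.3 and 58.6 NRPKM in PTC2+, against 65.7 and 72.7 NRPKM in PTC2- libraries, which overlap. The level of Coro1b relative to Coro7 was 3.92 and 3.04 in PTC2+ replicates 1 and 2, against 3.15 and 3.61 in PTC2- replicates 1 and 2. These ratios overlap between the populations.

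Cfl1 was abundant everywhere and its difference was not distinguishable from 0. It encodes cofilin, which severs and depolymerises actin filaments, and had the highest mean level of the 830 protein-coding segment rows. Its level was 3074 and 2647 NRPKM in PTC2+ replicates 1 and 2, against 2362 and 2361 NRPKM in PTC2- replicates 1 and 2. Both PTC2+ libraries were above both PTC2- libraries, but the PTC2+ libraries differed from each other by more than the lower of them differed from PTC2- cells. The difference was 0.27 (SE 0.15, interval -0.10 to 0.64; limma adjusted p = 0.385). RNA of Cfl1 says nothing of its phosphorylation, by which cofilin is controlled. The level of Coro1b relative to Cfl1 was 0.120 and 0.132 in PTC2+ replicates 1 and 2, against 0.0726 and 0.0676 in PTC2- replicates 1 and 2, without overlap.

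Ssh3, of the slingshot phosphatases that reactivate cofilin, had the lowest mean of the 8 genes over all 4 libraries, although Hcls1 was lower in PTC2- cells. Its level was 18.1 and 23.0 NRPKM in PTC2+ replicates 1 and 2, against 11.6 and 6.93 NRPKM in PTC2- replicates 1 and 2. The PTC2+ libraries were both higher, but each population had a wide spread. The mean was 2.22 times as high in PTC2+ as in PTC2- cells, a ratio as large as that of Coro1b, and the difference of 1.10 (SE 0.34, interval 0.26 to 1.94) did not pass (limma adjusted p = 0.163). Pak2 encodes a p21-activated kinase, which Rac and CDC42 switch on. Its level was 183 and 178.5 NRPKM in PTC2+ replicates 1 and 2, against 154 and 128.0 NRPKM in PTC2- replicates 1 and 2. The populations did not overlap, and the difference of 0.36 (SE 0.15, interval -0.02 to 0.74) did not pass (limma adjusted p = 0.272).

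**Figure D1:**
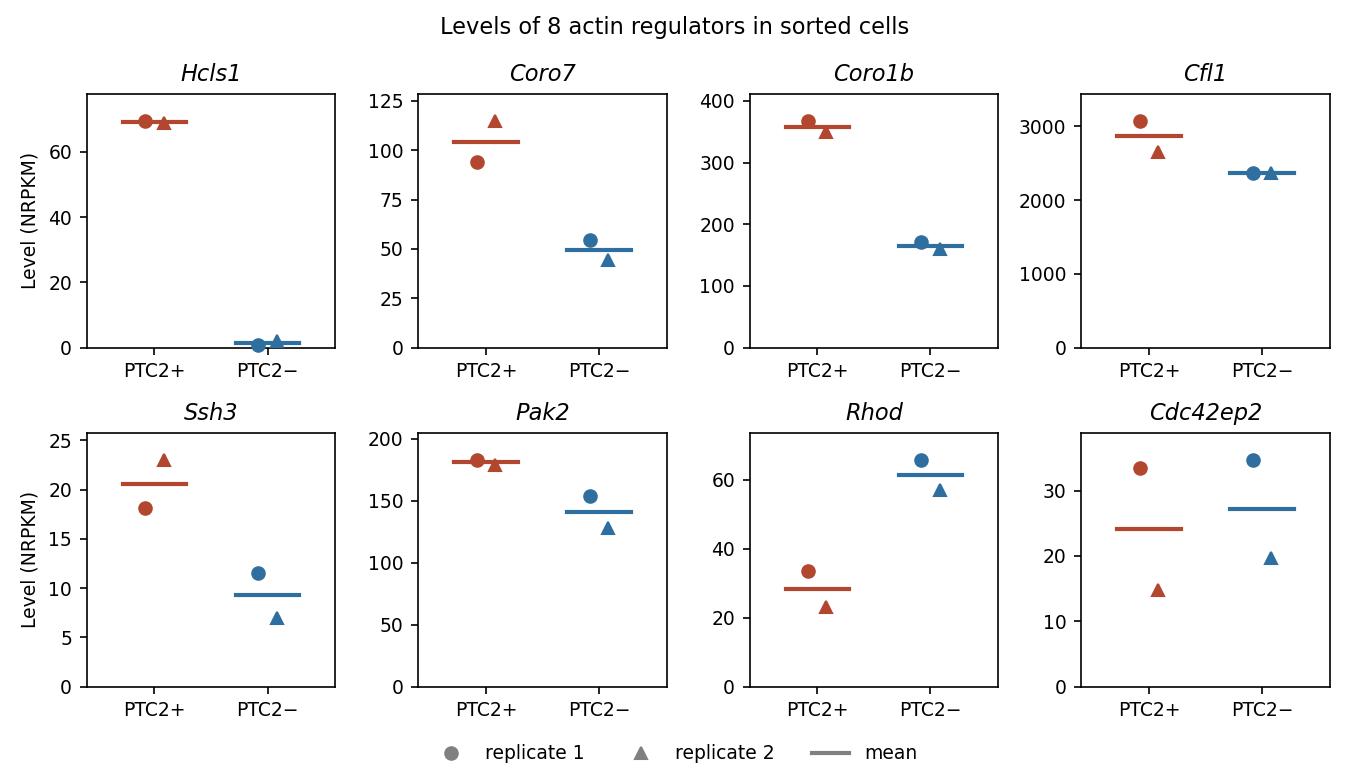
Level in NRPKM (vertical axes, each from 0 and on its own scale) of the 8 genes in PTC2+ (left) and PTC2- (right) libraries; circles are replicate 1, triangles replicate 2, bars the means of 2 libraries. Hcls1 is at 69.5 and 68.7 NRPKM in PTC2+ and close to 0 in PTC2- libraries, Rhod is the one gene with both PTC2+ libraries below both PTC2- libraries, and only the populations of Cdc42ep2 overlap.

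Rhod was the one gene of the 8 with both PTC2+ libraries below both PTC2- libraries. RHOD is a small GTPase that acts in endosome movement and in the formation of cell protrusions. Its level was 33.5 and 23.1 NRPKM in PTC2+ replicates 1 and 2, against 65.8 and 57.0 NRPKM in PTC2- replicates 1 and 2. The highest PTC2+ library was thus well below the lowest PTC2- library. The difference of -1.11 (SE 0.24, interval -1.70 to -0.52) did not pass over all rows (limma adjusted p = 0.0804) and passed within the segments (limma adjusted p = 0.0430). The noncoding RNA A930001C03Rik overlaps Rhod in RefSeq and stood at 1.28 and 1.31 NRPKM in PTC2+, against 4.29 and 4.20 NRPKM in PTC2- libraries, so reads of the pair cannot be told apart where strand is unknown.

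Cdc42ep2 followed the replicate number of the library more than the population. Its product is an effector that binds active CDC42 and shapes the cell through actin and septins. Its level was 33.4 and 14.8 NRPKM in PTC2+ replicates 1 and 2, against 34.7 and 19.8 NRPKM in PTC2- replicates 1 and 2. Both libraries numbered 1 were high and both numbered 2 were low, and the populations overlap. The difference was -0.22 (SE 0.46, interval -1.36 to 0.91; limma adjusted p = 0.841), with an interval wide enough to hold the difference of Rhod. Rhod relative to Cdc42ep2 was 1.00 and 1.56 in PTC2+ replicates 1 and 2, against 1.89 and 2.88 in PTC2- replicates 1 and 2.

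Counted together, 2 of the 8 genes rose in PTC2+ cells and 0 fell by limma over all rows tested, against a background of 6.23% of the 706 segment rows called in either direction (5.81% higher and 0.425% lower) and 2.92% of the 11807 rows of the whole table. With the adjustment made within the segments 3 of the 8 were higher (Hcls1, Coro1b and Coro7) and 1 lower (Rhod), against 11.0% of segment rows called in either direction, 9.07% higher and 1.98% lower. In 7 of the 8 genes the populations did not overlap, against 59.5% of segment rows. PTC2+ was the higher in 6 of these 7, against 30.0% of segment rows that were higher without overlap. The median difference of the 8 genes was 0.71, against -0.03 for all segment rows tested. The genes were picked with their differences known, so these counts describe them and support nothing further.

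Genes of leukocytes were among the nearest profiles to that of Hcls1. Of 829 other protein-coding segment rows, the 5 with the smallest Euclidean distance from its centred log2(NRPKM + 1) profile over the 4 libraries were Unc93b1, Parp14, Cd86, Stfa2l1 and Gas6, at distances of 0.11 to 1.30. Unc93b1, a carrier of nucleic-acid-sensing Toll-like receptors, was the nearest, with 242.6 and 244.2 NRPKM in PTC2+, against 4.31 and 9.20 NRPKM in PTC2- libraries. With 4 libraries in 2 populations, such likeness says little more than a like size of difference.

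Of 16 leukocyte markers listed for comparison 15 lie in the segments and 12 could be tested. This list and those of the other cell types were chosen with earlier results of these data known. Their counts therefore describe the listed genes and support nothing further. By limma over all rows 5 were higher in PTC2+ cells and 0 lower: Cd86, Nrros, Unc93b1, Cd200r1 and Klhl6. Of all segment rows tested, 5.81% were higher and 0.425% lower by that rule. The median difference of the tested markers was 2.01. The summed level of the list was 824 and 767 NRPKM in PTC2+ replicates 1 and 2, against 118 and 155 NRPKM in PTC2- replicates 1 and 2. Nrros (309 and 231 NRPKM) and Unc93b1 were the largest parts of the PTC2+ sums, and Tigit of the PTC2- sums. Of the 12 tested, 11 had a difference above 0 and 1, Vpreb1, below 0. Vpreb1 stood at 0 and 2.13 NRPKM in PTC2+, against 0.840 and 4.57 NRPKM in PTC2- libraries. Igll1, too low to be tested, stood at 0 and 0.174 NRPKM in PTC2+, against 1.13 and 0.373 NRPKM in PTC2- libraries. Cd86 and Cd200r1, surface molecules of antigen-presenting and myeloid cells, were listed at 0 in both PTC2- libraries, as were Cd209a and Tnfrsf17. These genes met the filter through the PTC2+ libraries alone, so they could only come out higher. Their calls, and their part in the counts and the median, are therefore no support. The T-cell gene Cd96 was listed at 0 in all 4 libraries. Tigit, an inhibitory receptor of T cells, was at 77.8 and 103 NRPKM in PTC2+, against 60.7 and 92.6 NRPKM in PTC2- libraries, which overlap. Overlapping genes were not looked up for the markers, so whether the reads counted for Tigit come from that gene was not tested. Stromal markers had lower sums in PTC2+ cells, of 594 and 529 NRPKM in PTC2+, against 919 and 961 NRPKM in PTC2- libraries. Of the 6, 2 fell (Snai2 and Cd248), against the 0.425% of segment rows. The differences of 5 were below 0 and that of 1, Adamts1, was above 0. Adamts1 stood at 251 and 231 NRPKM in PTC2+, against 216.5 and 201 NRPKM in PTC2- libraries, and did not pass (limma adjusted p = 0.472). Within the segments Cd209a and Tnfrsf17 also passed as higher and Robo2 as lower (limma adjusted p 0.0237 to 0.0393), where 9.07% of segment rows were higher and 1.98% lower. Epithelial markers summed to 169 and 154 NRPKM in PTC2+, against 70.6 and 65.1 NRPKM in PTC2- libraries, where Cldn8 alone of 3 tested rose, against the 5.81% of segment rows. Endothelial sums overlapped, with 743.5 and 652 NRPKM in PTC2+, against 642 and 677 NRPKM in PTC2- libraries, and 0 of 5 passed. Neither of the platelet markers passed, and their sums were 6.63 and 3.69 NRPKM in PTC2+, against 9.95 and 9.04 NRPKM in PTC2- libraries. Smooth muscle markers summed to 72.0 and 54.3 NRPKM in PTC2+, against 100 and 80.3 NRPKM in PTC2- libraries, with 0 of 2 passing. The part of these cell types in the differences of Hcls1, the coronins and Rhod was not tested. In sorted bulk cells, more cells of a type and more RNA per cell cannot be told apart.

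**Figure D2:**
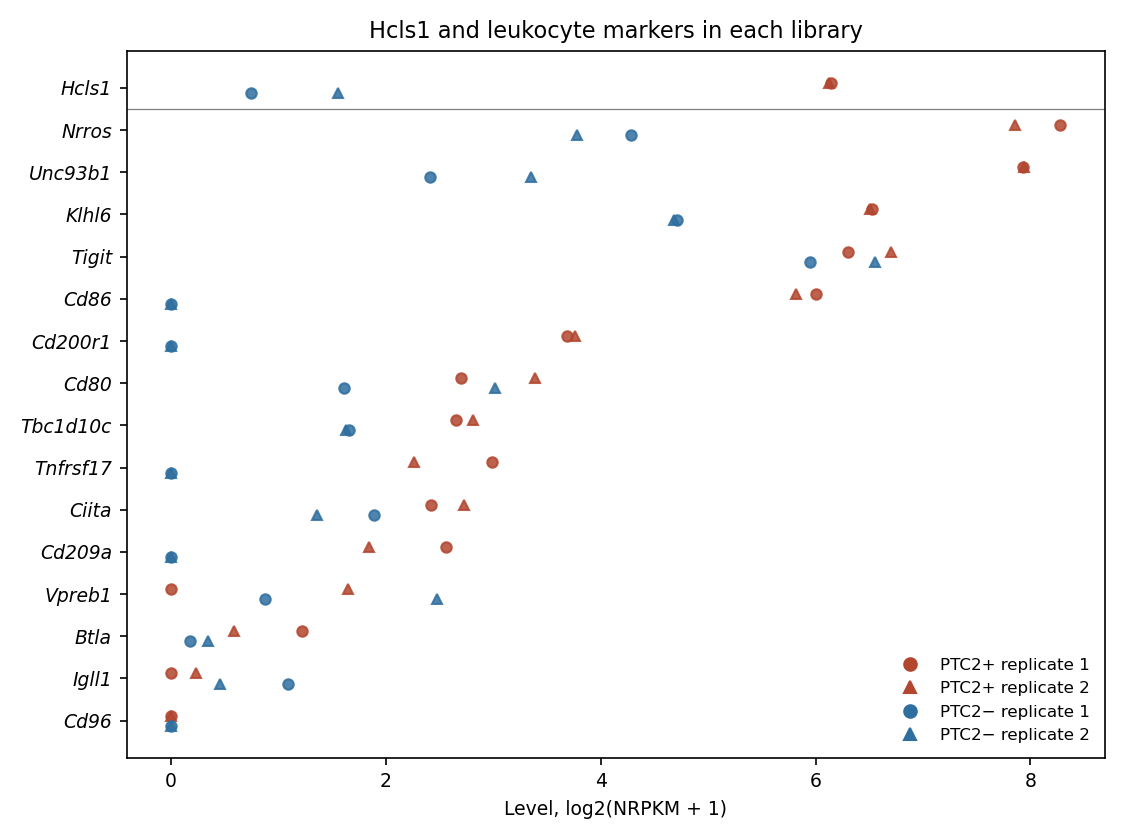
Level as log2(NRPKM + 1) (horizontal axis) of Hcls1 and of the 15 leukocyte markers in the segments, sorted by PTC2+ mean; red is PTC2+ and blue PTC2-, circles replicate 1 and triangles replicate 2. Hcls1, Nrros, Unc93b1, Klhl6, Cd86, Cd200r1, Tnfrsf17 and Cd209a have both PTC2+ libraries far right of both PTC2- libraries. Those of Tigit, Cd80 and Vpreb1 overlap, Igll1 has both PTC2+ libraries to the left, and Cd96 is at 0 throughout.

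A list of 12 other actin filament and myosin genes of the segments had 1 member higher and 0 lower in PTC2+ cells by limma over all rows, against 6.23% of segment rows called in either direction. That count is near the background. Within the segments 1 was higher and 1 lower, against 11.0% of segment rows. The list had a median difference of -0.24 (4 above 0 and 8 below), against -0.03 for all segment rows. The one that rose was Ehbp1l1, at 98.9 and 88.0 NRPKM in PTC2+, against 35.5 and 33.9 NRPKM in PTC2- libraries. Its difference was 1.40 (SE 0.17, limma adjusted p = 0.0239). Actn3, the actinin of fast muscle fibres, stood at 22.7 and 14.9 NRPKM in PTC2+, against 49.9 and 62.9 NRPKM in PTC2- libraries and just missed the threshold over all rows (difference -1.56; limma adjusted p = 0.0508), while it passed within the segments (limma adjusted p = 0.0236). Filip1l, named for its likeness to a filamin-binding protein, was the most abundant of the list with Phldb2. It stood at 126 and 131 NRPKM in PTC2+, against 70.5 and 91.3 NRPKM in PTC2- libraries (limma adjusted p = 0.124). Phldb2, which anchors microtubules at the cell cortex, stood at 105 and 112 NRPKM in PTC2+, against 127 and 125.5 NRPKM in PTC2- libraries (limma adjusted p = 0.453). The call of Ehbp1l1 did not hold when any 1 library was left out.

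**Figure D3:**
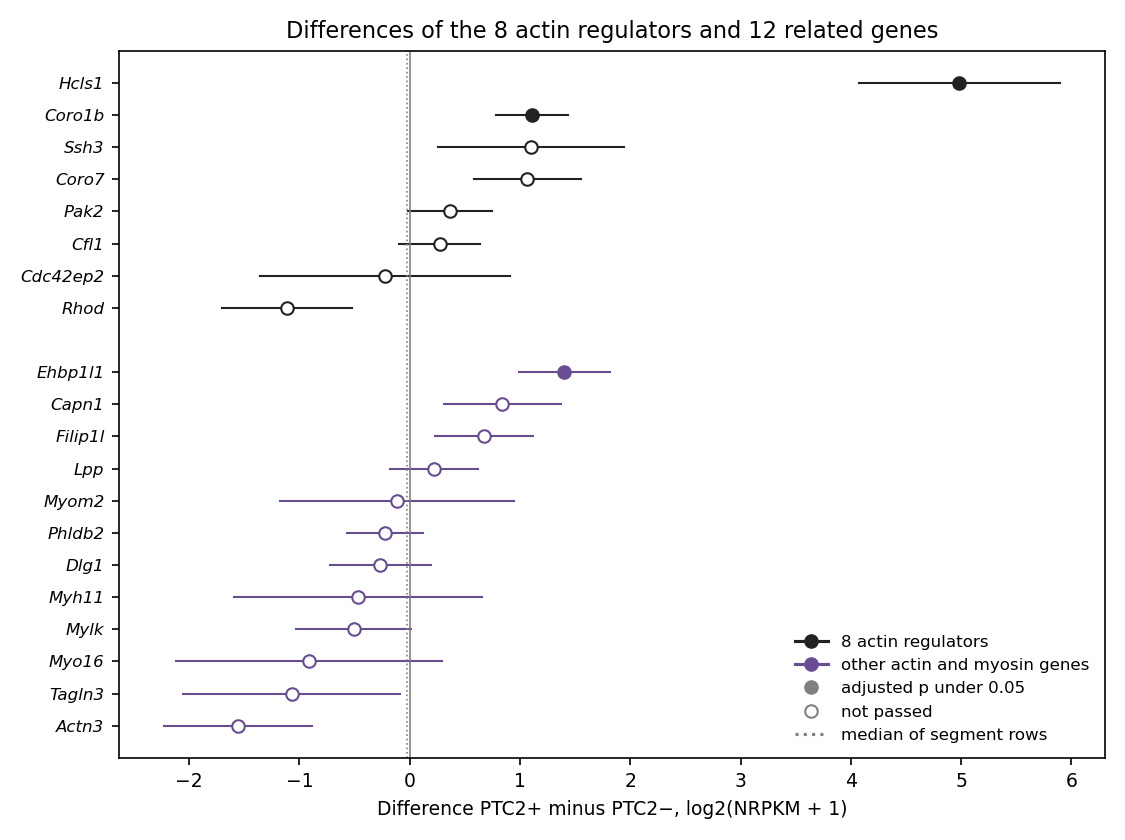
Difference PTC2+ minus PTC2- on the log2(NRPKM + 1) scale (horizontal axis) with its 95% interval from limma for the 8 genes (black) and 12 other actin and myosin genes (purple); filled points have an adjusted p under 0.05 over all rows, and the dotted line is the median of segment rows. Hcls1 at 4.98 stands apart from all other genes drawn, of which Coro1b and Ehbp1l1 are filled.

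The nearest 2 protein-coding rows on each side of the 8 genes gave 31 different genes, of which 29 were tested. Their median difference was -0.05, and 1 passed higher and 0 lower by limma over all rows, against 6.23% of segment rows called in either direction. Within the segments 2 passed higher and 0 lower, against 11.0% of segment rows, so both counts are near the background. The one that passed over all rows was Adrbk1, a kinase of G-protein-coupled receptors that lies between Ssh3 and Rhod, at 94.5 and 102 NRPKM in PTC2+, against 38.8 and 45.6 NRPKM in PTC2- libraries (difference 1.20; limma adjusted p = 0.0321). Ptprcap, a partner of the leukocyte phosphatase CD45, lies next to Coro1b. It stood at 23.2 and 16.8 NRPKM in PTC2+, against 5.78 and 4.65 NRPKM in PTC2- libraries and passed within the segments (limma adjusted p = 0.0282). Fbxo40, a muscle ubiquitin ligase subunit next to Hcls1, stood at 14.1 and 3.35 NRPKM in PTC2+, against 0.243 and 0 NRPKM in PTC2- libraries and did not pass (limma adjusted p = 0.0997); it was singled out after its values were seen. Golgb1, on the other side of Hcls1, stood at 152 and 140.3 NRPKM in PTC2+, against 132 and 119 NRPKM in PTC2- libraries (difference 0.22; limma adjusted p = 0.472).

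**Figure D4:**
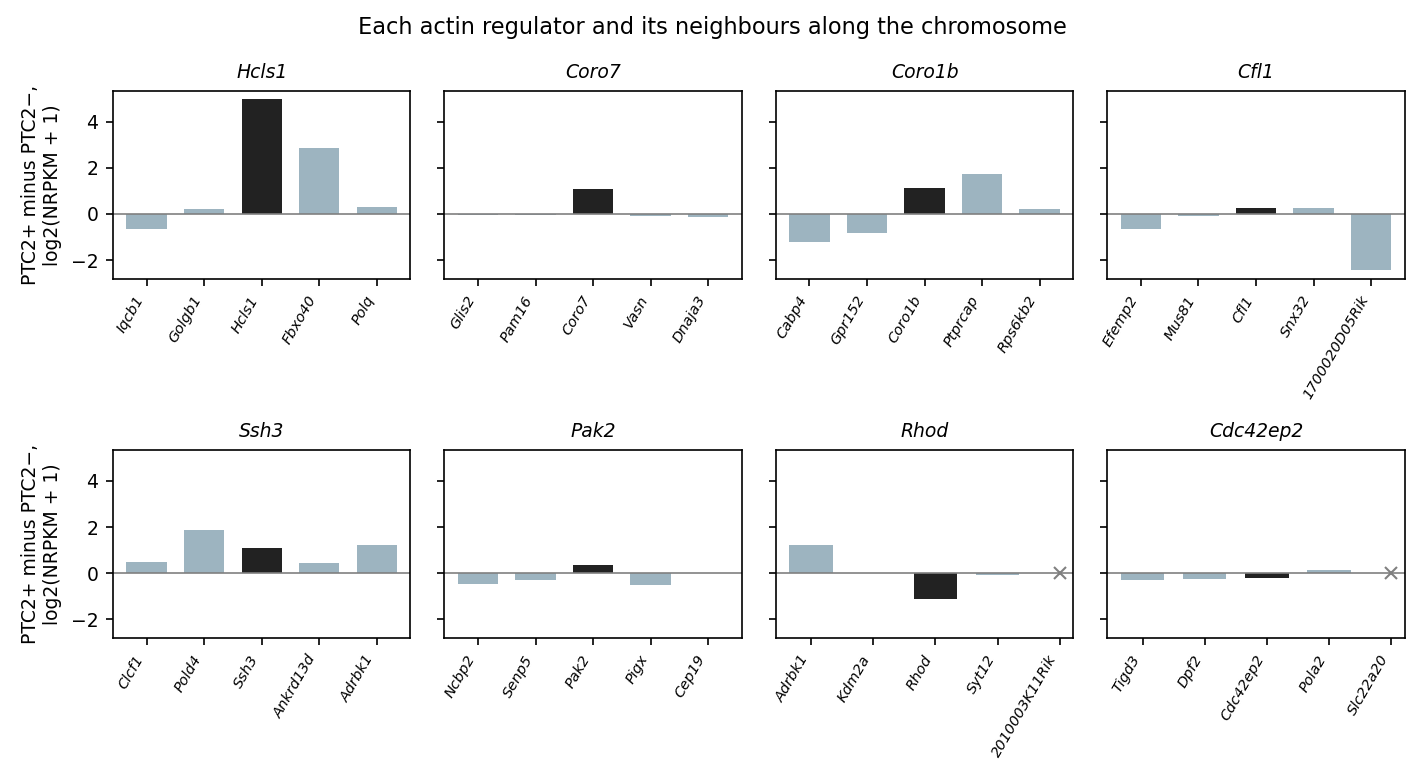
Difference PTC2+ minus PTC2- on the log2(NRPKM + 1) scale (vertical axes, shared) of each of the 8 genes (black) and its nearest 2 protein-coding neighbours on each side in chromosome order (grey bars); a cross marks a neighbour too low to be tested. The bar of Hcls1 (4.98) is far above those of Iqcb1, Golgb1 and Polq, with Fbxo40 (2.86) between, and the neighbours of Coro7 lie close to 0.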

How the data were processed

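Per the labels' protocols, RNA of sorted cells went through NuGEN Ovation amplification and Nextera XT library preparation. The submitters' processing notes name TopHat2 2.0.5, TopHat, Cufflinks 2.0.0 and mm9; the read counter and gene models were not given in the sources used here. Deposited values are normalized RPKM made by the authors, with 1 column per library, so no count model was used and depth is known only by the rough read estimate. The test was limma 3.58.1 (mean-variance trend, R 4.3.3) on log2(NRPKM + 1) of the 11807 rows that reached 1 NRPKM in 2 or more libraries. It was two-sided, with Benjamini-Hochberg adjustment over all of these rows and a threshold of 0.05. The code was also run on simulated data drawn with the fit's own spread, which cannot test the assumptions of the fit. Differences are PTC2+ minus PTC2-. The 8 genes, the segments and the lists were chosen with earlier results of these data known. Named were all 8 genes, passing members of the lists and neighbours, otherwise the most abundant list members, and the 5 profiles nearest to Hcls1. Tigit, Cd96, Vpreb1, Igll1, Adamts1, Golgb1 and Fbxo40 were added after their values were seen. Gene class, order, overlaps and start regions are from RefSeq GRCm38.p6, and exon lengths for the read estimate from GENCODE. 12 alternatives were tried. One gene list is not reported here.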

Additional observations from a re-analysis of the deposited data

How the results depend on the processing

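Of 96 alternative values of the 8 differences, 82 kept direction and side of the threshold, 9 lost the call, 3 gained it and 2 turned direction: Cdc42ep2 (-0.22) was 0.34 without PTC2+ replicate 2, was 0.17 without PTC2- replicate 1, and ranged from -0.78 to 0.34 with 1 library left out. Limma's 345 changed rows of the whole table became 214 with a pseudocount of 0.1, 200 with no trend and 0 without the filter (2596 had an unadjusted p under 0.05), and 0 to 42 with 1 library left out (1511 to 1815 unadjusted). Changed segment rows (44) were 17 with no trend, 78 with the adjustment within the segments, 0 with no filter (186 unadjusted), and 0 to 10 with 1 library left out (139 to 151 unadjusted). Of the 8 genes (2 changed), 1 was called with no trend, 4 within the segments, 0 with no filter (5 unadjusted), and 0 to 1 with 1 library left out (4 to 5 unadjusted). The other actin genes (1 changed) were 2 with a pseudocount of 5, a filter at 5 NRPKM, median centring or the adjustment within the segments, 0 with no filter (4 unadjusted) or no trend (3 unadjusted), and 0 with any library left out (3 to 5 unadjusted). The cause was not tested. For each library left out, the single one remaining in its population is assumed to vary as the other pair does.

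Replicate numbers are shared between the populations, and the labels do not say what they mark. The deposited column names also share a tag between the PTC2+ and PTC2- libraries of the same number, so these may be pairs. The correlation between deviations of libraries with the same number was 0.02 over all tested rows and 0.09 over segment rows. The main fit does not pair them, but so low a correlation cannot settle whether they are pairs. With the replicate block, 332 rows changed over the table, 44 in the segments and 2 of the 8 genes. Of the 8 genes, 7 then had an unadjusted limma p under 0.05, against 5 in the main fit. The SE of Cdc42ep2 was 0.23 with the block, against 0.46 in the main fit. Depth limits the low values most, such as Hcls1 in PTC2- cells.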
